A study of Mus musculus with 12 samples.

Results

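The cytosolic heat shock proteins were followed here as 10 genes, *Hspa1a*, *Hspa1b*, *Hsph1*, *Dnajb1*, *Hspb1*, *Hspb8*, *Hspa8*, *Hsp90aa1*, *Hsp90ab1* and *Hsf1*, of the 24421 gene symbols in the deposited tables. They were chosen by symbol, and where a symbol had several transcripts the one with the highest total count was used. All 10 passed the filter on low counts in every comparison. The libraries came from whole kidneys of male C57BL/6 mice (C57BL/6J in the study's methods) at 6 weeks old, WT or Tet2-/-, with 3 mice in each of 4 groups. The baseline groups are labelled as healthy controls. In the IR groups the right renal pedicle was clamped for 60 min, the left kidney was removed, and kidneys were taken 24 h after the operation. The labels and methods do not restrict the Tet2 deletion to a cell type. No sham-operated library was analysed here, so in each IR comparison ischemia, surgery and loss of the left kidney cannot be told apart. The questions were how IR and genotype move these genes, alone and together.

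Heat shock proteins are chaperones that bind unfolded proteins and help them fold, keep them from clumping or hand them on for degradation. HSP70 proteins do so in cycles of ATP use, which HSP40 proteins (J proteins) start and HSP110 proteins reset. Small heat shock proteins hold unfolded proteins without ATP, and HSP90 proteins act late, on nearly folded clients such as kinases and steroid receptors. HSF1 is the transcription factor that is freed when unfolded proteins occupy the chaperones and then switches on the inducible members through heat shock elements, inverted repeats of the letters GAA. In the kidney, proximal tubule cells have a high demand for ATP, are injured by ischemia and are known to make heat shock proteins in response.

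Upstream sequence is shown for *Hspa1a* and *Hspa1b*, the inducible HSP70 genes, which fell with IR in the libraries labelled Tet2-/-, and for the small heat shock protein genes *Hspb1* and *Hspb8*, which rose there. Each run is the 250 bases before the deposited transcript start on mm9, 5′ to 3′ on the gene's strand, with matches to GAANNTTC or TTCNNGAA in capitals.
Hspa1a (chr17:35109102-35109351, minus strand): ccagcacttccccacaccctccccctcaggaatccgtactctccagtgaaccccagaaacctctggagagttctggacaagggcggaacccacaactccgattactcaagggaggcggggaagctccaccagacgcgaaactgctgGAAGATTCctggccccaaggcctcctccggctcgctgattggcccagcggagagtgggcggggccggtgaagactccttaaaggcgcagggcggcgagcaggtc
Hspa1b (chr17:35096184-35096433, minus strand): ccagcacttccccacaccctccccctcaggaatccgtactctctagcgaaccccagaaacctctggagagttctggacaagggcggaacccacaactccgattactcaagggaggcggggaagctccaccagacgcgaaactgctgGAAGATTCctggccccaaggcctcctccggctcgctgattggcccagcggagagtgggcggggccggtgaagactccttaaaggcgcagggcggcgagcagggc
Hspb1 (chr5:136363539-136363788, plus strand): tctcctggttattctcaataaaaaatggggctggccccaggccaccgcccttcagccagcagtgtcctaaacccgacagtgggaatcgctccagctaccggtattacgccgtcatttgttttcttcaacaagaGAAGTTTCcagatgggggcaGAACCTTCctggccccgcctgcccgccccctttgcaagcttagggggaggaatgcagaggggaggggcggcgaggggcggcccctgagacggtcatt
Hspb8 (chr5:116872874-116873123, minus strand): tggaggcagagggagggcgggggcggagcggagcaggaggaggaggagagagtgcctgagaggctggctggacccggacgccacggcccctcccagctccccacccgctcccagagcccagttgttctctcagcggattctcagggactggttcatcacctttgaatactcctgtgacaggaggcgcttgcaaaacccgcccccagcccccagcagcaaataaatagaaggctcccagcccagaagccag

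The windows of *Hspa1a* and *Hspa1b* were identical at 247 of 250 positions, and each held 1 match, GAAGATTC, from 104 to 97 bases upstream. The window of *Hspb1* held 2 matches, GAAGTTTC from 117 to 110 and GAACCTTC from 97 to 90 bases upstream, while that of *Hspb8* held none. *Hsph1* had TTCTCGAA from 54 to 47 bases upstream, in a window of which 61 bases are annotated as exon. *Hspa8* had both longer forms with 3 alternating units, GAAAGTTCCAGAA from 210 to 198 and TTCTGGAAGGTTC from 52 to 40 bases upstream, although all 250 bases of its window are annotated as exon. *Dnajb1*, *Hsp90aa1*, *Hsp90ab1* and *Hsf1* had no match in this window, of which 10 bases for *Hsp90ab1* and 85 for *Hsf1* are annotated as exon. The deposited starts of *Hspa1a*, *Hsph1*, *Hspa8* and *Hsp90ab1* are not annotated transcript starts. Over all genes with an annotated symbol, 12966 of 20760 deposited starts were annotated starts. The distances, and the lack of a match, therefore depend on the start used. Of 24348 such windows over all genes, 11.7% held a match with 2 units and 0.431% held one with 3 units (GAA, TTC and GAA, or TTC, GAA and TTC, with 2 bases of any kind between units). Both strands were covered, since each pair of patterns reads as itself on the other strand, and every match with 3 units also contains matches with 2. A match is a run of letters and not a measured binding site.

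**Figure D1:**
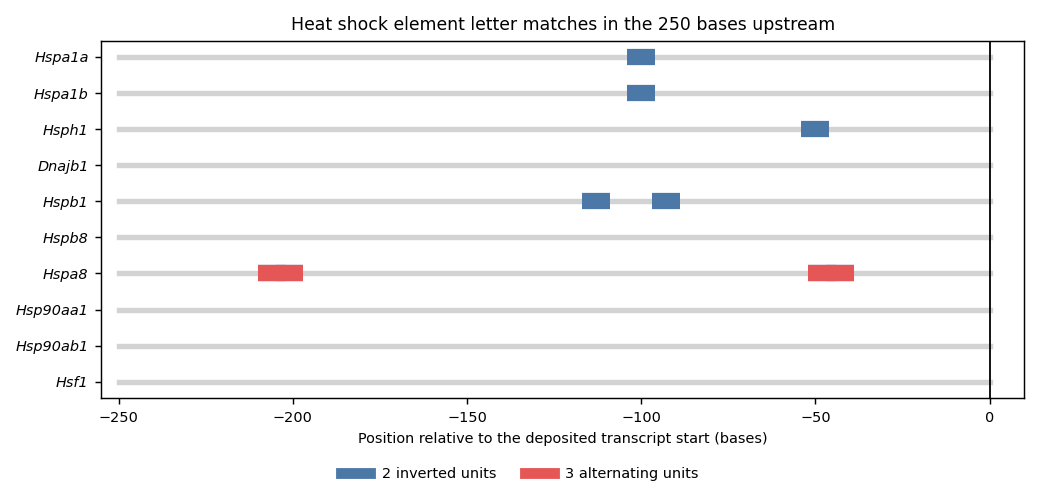
Position of heat shock element letter matches in the 250 bases before the deposited transcript start of each of the 10 genes; the horizontal axis is the distance from the start in bases and each grey line is 1 window. Matches with 2 inverted units (blue) lie in the windows of *Hspa1a*, *Hspa1b*, *Hsph1* and *Hspb1*, and matches with 3 units (red) in that of *Hspa8*.

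On mm9 and in the deposited coordinates, *Hspa1b* (NM_010478) spans chr17:35093374-35096183 and *Hspa1a* (NM_010479) chr17:35106304-35109101, both on the minus strand. Their coding sequences were 99.5% identical, and about 50.0% of the 100-base windows of *Hspa1a* occur unchanged in *Hspa1b*, so how reads were shared between them is uncertain. *Hspa1a* also overlaps 552 exonic bases of the gene *Gm20481* on the other strand. *Hspb1* (chr5:136363789-136365433, plus strand), *Hspa8* (chr9:40609356-40613282, plus strand) and *Hsp90aa1* (chr12:111929246-111934605, minus strand) have 1, 7 and 3 copies elsewhere in the genome that match at least 200 coding bases at 95% identity or more, and their counts are uncertain too. *Hspa8* holds 3 small nucleolar RNA genes in its span. No such copy was found for *Hsph1* (chr5:150419420-150438890, minus), *Dnajb1* (chr8:86132074-86136552, plus), *Hspb8* (chr5:116858500-116872873, minus), *Hsp90ab1* (chr17:45704727-45710210, minus) or *Hsf1* (chr15:76307875-76331402, plus).

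Total counts per library ran from 51007366 to 107969888. FPKM, the fragments counted per length of transcript and per total of mapped fragments, is the level scale used here. *Tet2* itself was at 9.15, 6.25 and 7.33 FPKM in WT and 9.25, 16.6 and 10.3 FPKM in the libraries labelled Tet2-/- at baseline, so every library labelled Tet2-/- lay above every WT library there, opposite to the direction of a deletion (log2 difference 0.76, adjusted p = 0.321). After IR it was at 9.34, 3.97 and 3.86 in WT against 2.64, 3.20 and 1.76 FPKM (log2 difference -1.28, adjusted p = 0.069). With IR it fell by 2.52 in the libraries labelled Tet2-/- (adjusted p = 0.000519), with an interaction of -2.001 (adjusted p = 0.0285). The count covers the whole transcript, and which exons the allele lacks is not given in the sources used here. Summed FPKM of 12 proximal tubule markers was 35931 or more in every baseline library. Skeletal muscle markers summed to at most 1.97 FPKM in any library. Summed adipocyte markers reached 153 and 329 FPKM in WT baseline replicates 2 and 3 and 618 FPKM in the Tet2-/- IR replicate 3, against 18.1 to 116 FPKM in the others.

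At baseline *Hsp90ab1* was the most abundant member and *Hspb8* the least. *Hsp90ab1*, a constitutive cytosolic HSP90, averaged 437 ± 49.1 FPKM (SD, n = 3) in WT, and *Hspa8*, the constitutive HSC70, averaged 262 ± 26.5. The libraries of these genes did not overlap each other or the third gene, *Hsph1*, at 70.5 ± 26.0. From *Hsph1* down to *Hsf1* (14.1 ± 2.22), neighbours in the order overlapped, and only *Hspb8* (3.10 ± 0.960) stood apart below them. After IR the order changed below the first 2 places in both genotypes. In WT *Hsp90aa1* took the third place (82.8 ± 10.8) and *Hspb1* the fifth (30.7 ± 14.8). Under the label Tet2-/- *Hspb1* took the fourth with 88.7 ± 5.83 FPKM, and its libraries overlapped those of *Hsp90aa1* (96.0 ± 15.01) but not those of *Hsph1* (32.1 ± 9.39). *Hspa1a* was last there at 8.98 ± 3.41 FPKM and next to last in WT at 6.24 ± 2.04.

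**Figure D2:**
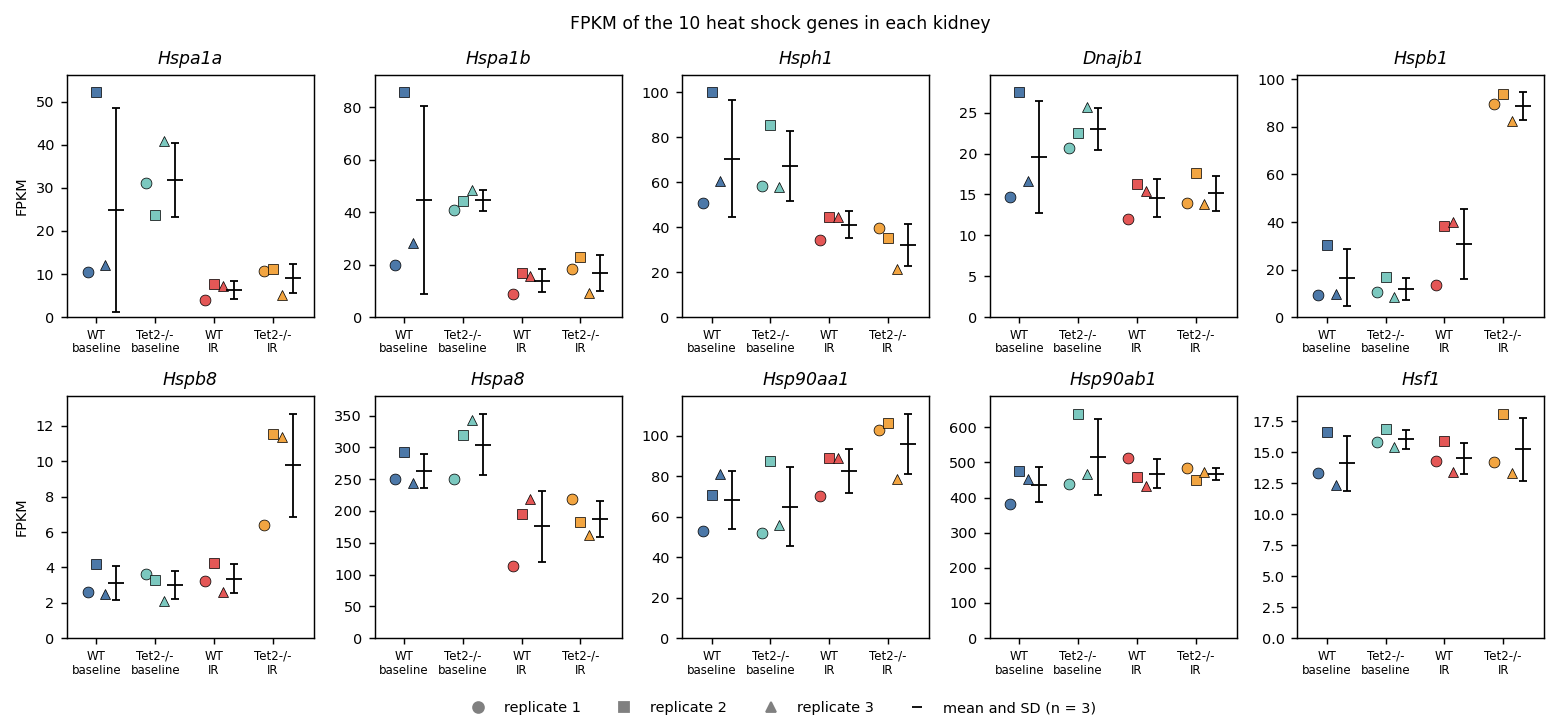
FPKM of each of the 10 genes (1 panel each, linear axis from 0) in the 12 libraries, by group, with the mean and SD of 3 libraries as a bar at the right of each group. *Hspa1a* and *Hspa1b* are lower in the IR groups than at baseline, *Hspb1* lies between 82.4 and 94.0 FPKM in the IR libraries labelled Tet2-/-, and WT baseline replicate 2 (blue square) is the highest WT baseline library in 9 panels.

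The inducible HSP70 genes were lower 24 h after IR. *Hspa1a* was at 10.4, 52.2 and 12.1 FPKM in WT at baseline and at 3.903, 7.66 and 7.15 after IR. Kidneys labelled Tet2-/- had it at 31.3, 23.7 and 40.8 at baseline and at 10.6, 11.3 and 5.06 after IR. Every IR library was below every baseline library of its genotype, and WT baseline replicate 2 was 5.04 times the lowest of its group. *Hspa1b* was at 19.9, 85.6 and 28.4 FPKM in WT at baseline and at 8.89, 16.9 and 15.8 after IR. In the libraries labelled Tet2-/- it went from 40.7, 44.2 and 48.6 to 18.2, 22.9 and 9.18. The same pattern held, again with WT baseline replicate 2 far above the other WT libraries. Among libraries labelled Tet2-/- *Hspa1a* fell by 2.11 on the log2 scale (SE 0.312, 4.32-fold lower, adjusted p = 0.00169) and *Hspa1b* fell by 1.69 (SE 0.277, 3.23-fold lower, adjusted p = 0.00263). In WT the estimates were of like size but their errors were larger. They were -2.03 for *Hspa1a* (95% interval -3.56 to -0.50, adjusted p = 0.135) and -1.73 for *Hspa1b* (-3.04 to -0.42, adjusted p = 0.136), so neither was called. With the replicate number as a block both were called in WT, at -1.70 (adjusted p = 0.0388) and -1.51 (adjusted p = 0.0285), and DESeq2 called both too (adjusted p = 0.00647 and 0.0102). Without WT baseline replicate 2 the WT estimates shrank to -0.89 and -0.84 and were not called (adjusted p = 0.194 and 0.218). The genotype by IR interaction was -0.04 for *Hspa1a* (95% interval -1.72 to 1.65) and 0.08 for *Hspa1b* (-1.38 to 1.54), so large differences either way lie within these intervals. Without WT baseline replicate 2 it was -1.23 for *Hspa1a* (adjusted p = 0.143) and -0.86 for *Hspa1b* (adjusted p = 0.272).

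Since reads may have been shared between these genes, their sum was tested as 1 gene. The summed FPKM was 30.2, 138 and 40.5 in WT at baseline against 12.8, 24.5 and 23.0 after IR. In the libraries labelled Tet2-/- it was 71.96, 67.9 and 89.5 against 28.8, 34.2 and 14.2. The sum fell by 1.85 in the latter (adjusted p = 0.00209) and stood at -1.83 in WT (adjusted p = 0.136). At baseline all 3 libraries labelled Tet2-/- lay above WT replicates 1 and 3 and below WT replicate 2. The genotype difference in the sum at baseline was 0.23 (adjusted p = 0.86). Without WT baseline replicate 2 it was 1.60 for *Hspa1a* alone and 0.97 for *Hspa1b* alone, both at an adjusted p of 0.166.

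The partners of HSP70 followed the same direction. *Hsph1* encodes HSP110, which exchanges the nucleotide of HSP70. It was at 50.9, 99.96 and 60.6 FPKM in WT at baseline and at 34.3, 44.5 and 44.7 after IR. Kidneys labelled Tet2-/- had it at 58.2, 85.3 and 58.0 at baseline and at 39.5, 35.2 and 21.5 after IR. The groups did not overlap in either genotype. It fell by 1.33 in the libraries labelled Tet2-/- (SE 0.249, adjusted p = 0.00456) and its WT estimate was -0.83 (SE 0.269, adjusted p = 0.14), or -0.48 without WT baseline replicate 2 (adjusted p = 0.228). With the replicate block the WT estimate reached an adjusted p of 0.0491, still short of the fold limit of 1. *Dnajb1*, the HSP40 that is induced along with HSP70 and delivers clients to it, was at 14.7, 27.5 and 16.6 FPKM in WT at baseline and at 11.96, 16.3 and 15.4 after IR. In the libraries labelled Tet2-/- it was at 20.7, 22.6 and 25.7 at baseline and at 13.9, 17.6 and 13.8 after IR. The WT groups overlapped, and the others did not. *Dnajb1* fell by 0.87 in the libraries labelled Tet2-/- (SE 0.136, adjusted p = 0.00217), which is under the fold limit, and its WT estimate was -0.48 (SE 0.253, adjusted p = 0.309), or -0.15 without WT baseline replicate 2 (adjusted p = 0.676). The interaction was -0.47 for *Hsph1* (95% interval -1.33 to 0.40) and -0.35 for *Dnajb1* (-1.01 to 0.31), and neither passed the test (adjusted p = 0.475 and 0.486). A further *Dnajb1* transcript in the tables, NM_001308227, ran from 10.9 to 26.9 FPKM over the 12 libraries, also highest in WT baseline replicate 2.

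The small heat shock proteins *Hspb1* and *Hspb8* rose after IR in the libraries labelled Tet2-/-. *Hspb1*, known as HSP25 in the mouse, also binds actin filaments. It was at 9.32, 30.3 and 9.85 FPKM in WT at baseline and at 10.4, 17.0 and 8.26 in the libraries labelled Tet2-/-. After IR it was at 13.6, 38.5 and 40.1 in WT and at 89.6, 94.0 and 82.4 in those labelled Tet2-/-. Every IR library labelled Tet2-/- was above all 9 others, while the WT groups overlapped through WT baseline replicate 2 and WT IR replicate 1. *Hspb8*, which works with BAG3 and HSP70 in the clearance of clumped proteins, was at 2.60, 4.21 and 2.50 FPKM in WT at baseline and at 3.24, 4.23 and 2.63 after IR. Kidneys labelled Tet2-/- had it at 3.61, 3.31 and 2.08 at baseline and at 6.40, 11.6 and 11.4 after IR. The last 3 libraries were again above all others. *Hspb1* rose by 2.64 (SE 0.255, 6.24-fold, adjusted p = 0.000335) and *Hspb8* by 1.45 (SE 0.293, 2.74-fold, adjusted p = 0.00642) with IR in the libraries labelled Tet2-/-. In WT the estimates were 0.86 for *Hspb1* (95% interval -0.50 to 2.23, adjusted p = 0.415) and 0.05 for *Hspb8* (-0.56 to 0.67, adjusted p = 0.928). Without WT baseline replicate 2 the *Hspb1* estimate became 1.65 (adjusted p = 0.164), while leaving out WT IR replicate 3 gave 0.56 (adjusted p = 0.707).

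After IR, *Hspb8* was higher in the libraries labelled Tet2-/- than in WT by 1.45 (SE 0.271, 2.74-fold, adjusted p = 0.0242). This call was lost without WT IR replicate 1 (adjusted p = 0.0879), WT IR replicate 3 (0.0787), Tet2-/- IR replicate 2 (0.0643) or Tet2-/- IR replicate 3 (0.0571), with estimates between 1.26 and 1.41. *Hspb1* differed by 1.41 (SE 0.393, 2.66-fold) at an adjusted p of 0.0673 and was not called. DESeq2 (adjusted p = 0.00509), limma on log2(FPKM + 1) (0.0495) and edgeR without WT IR replicate 1 (1.05, adjusted p = 0.0328) did call it. The interaction, which asks whether the IR effect itself differed between genotypes, was 1.44 for *Hspb8* (95% interval 0.53 to 2.34, adjusted p = 0.0519) and 1.81 for *Hspb1* (0.29 to 3.34, adjusted p = 0.12). Neither passed, although *Hspb8* did without WT IR replicate 2 (1.60, adjusted p = 0.0407) or Tet2-/- IR replicate 1 (1.66, adjusted p = 0.0355). With the replicate block, *Hspb1* passed (1.85, adjusted p = 0.0415) and *Hspb8* did not (1.40, adjusted p = 0.0526), and with DESeq2 *Hspb8* passed (1.39, adjusted p = 0.0143). Without WT baseline replicate 2 the interaction was 0.99 for *Hspb1* (adjusted p = 0.295) and 1.10 for *Hspb8* (adjusted p = 0.112).

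Of the constitutive and HSP90 chaperones, *Hspa8* passed the test with IR in the libraries labelled Tet2-/- and the HSP90 genes did not. *Hspa8* was at 249.6, 293 and 244 FPKM in WT at baseline and at 113, 196 and 219 after IR. In the libraries labelled Tet2-/- it was at 250.02, 319.6 and 344 at baseline and at 218, 182 and 163 after IR. The groups did not overlap in either genotype, and WT IR replicate 1 was the lowest of all. *Hspa8* fell by 0.96 in the libraries labelled Tet2-/- (SE 0.206, adjusted p = 0.00844), just under the fold limit, and its WT estimate was -0.62 (SE 0.275, adjusted p = 0.238), or -0.37 without WT IR replicate 1 (adjusted p = 0.284). Without Tet2-/- baseline replicate 1 or Tet2-/- IR replicate 1 the decrease passed the limit, at -1.09 and -1.10. *Hsp90aa1*, the stress-responsive cytosolic HSP90, ranged from 52.0 to 87.5 FPKM over the 6 baseline libraries and from 70.3 to 106 over the 6 IR libraries. Its IR estimates were 0.22 in WT (95% interval -0.27 to 0.71) and 0.30 in the libraries labelled Tet2-/- (-0.22 to 0.82), not called. *Hsp90ab1* was at 382, 476 and 453 FPKM in WT at baseline and at 514, 458 and 432 after IR. Those labelled Tet2-/- were at 439, 639 and 468 at baseline and at 483, 449 and 472 after IR. The groups overlapped, with IR estimates of 0.03 in WT (95% interval -0.34 to 0.41) and -0.39 in the libraries labelled Tet2-/- (-0.92 to 0.13).

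*Hsf1*, the regulator, was among the steadiest members, from 12.4 to 18.1 FPKM over the 12 libraries. Its IR estimate was -0.02 in WT (95% interval -0.33 to 0.29). Among libraries labelled Tet2-/- it was -0.34 (SE 0.117, adjusted p = 0.0489), although the FPKM of these groups overlapped (15.8, 16.9 and 15.4 at baseline against 14.2, 18.1 and 13.3 after IR). With the replicate block the adjusted p was 0.0631, and with library sizes in place of TMM scaling the estimate was -0.11 (adjusted p = 0.562). That scaling moved the median of all genes in this comparison from 0.04 to 0.27. The decreases of *Hspa1a* (-1.86), *Hspa1b* (-1.44) and *Hsph1* (-1.09) and the increases of *Hspb1* (2.87) and *Hspb8* (1.67) were still called under it. The transcript level of *Hsf1* does not measure how much of the protein is active.

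A call here means that a gene passed an adjusted p of 0.05 and changed by more than 1 on the log2 scale (for the interaction, the adjusted p only). With IR in the libraries labelled Tet2-/-, 5 of 10 members were called, 2 higher (*Hspb1*, *Hspb8*) and 3 lower (*Hspa1a*, *Hspa1b*, *Hsph1*), against 24.3% of all 16359 genes tested (12.7% higher and 11.6% lower). With library sizes in place of TMM scaling the split over all genes moved from 2078 higher and 1896 lower to 2860 higher and 1397 lower, and the members kept the same 5 calls. At an adjusted p under 0.05 and any fold, 8 of 10 passed, 6 of them lower, against 20.3% of all genes lower and 22.9% higher. In the IR effect in WT 0 of 10 were called, against 2.35% of 16015 genes (1.46% higher and 0.887% lower). There 3 of 10 members had an unadjusted p under 0.05 with edgeR, as did 3640 of the 16015 genes. DESeq2, which called 6.45% of all genes, and the replicate block, which called 6.16%, called 2 members each. Without 1 library the calls over all genes ranged from 87 to 548 in place of 376. All 3 WT IR libraries lay below all 3 WT baseline libraries for 4 members, which 10.4% of all genes did, and for no member above, which 18.9% of all genes did. In the libraries labelled Tet2-/- this was so for 5 members below, against 17.9%, and 2 above, against 40.5%. The median log2 fold change of the members was -0.25 in WT and -0.63 in the libraries labelled Tet2-/-, beside -0.03 and 0.04 over all genes.

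Between genotypes at baseline 0 of 10 members were called by edgeR and 0 by DESeq2, against 0.0124% of 16086 genes with edgeR and 2.13% of 16197 with DESeq2. An unadjusted p under 0.05 with edgeR was reached by 0 members and by 1891 of the 16086 genes. The FPKM of the groups overlapped for every member, while 3.06% of all genes lay wholly above and 16.5% wholly below. The estimates ran from -0.39 for *Hspb1* (95% interval -1.53 to 0.76) to 0.45 for *Hspa1a* (-0.95 to 1.85). After IR 1 of 10 was called, *Hspb8*, against 6.15% of 16186 genes (2.3% higher and 3.85% lower). The libraries labelled Tet2-/- lay wholly above WT for 2 members, *Hspb1* and *Hspb8*, and wholly below for none, against 22.0% and 14.6% of all genes. The other 8 members had genotype estimates after IR between -0.48 (*Hsph1*) and 0.40 (*Hspa1a*). The interaction called 0 of 10 with edgeR, against 9.18% of 16741 genes (3.79% higher and 5.39% lower). Over all genes 634 were higher and 902 lower, or 1129 higher and 700 lower with library sizes alone. An unadjusted p under 0.05 with edgeR was reached by 2 of 10 members and by 4551 of the 16741 genes. DESeq2 called 1 member and 16.5% of all genes in the interaction. The IR comparisons and genotype comparisons share libraries, so their values are not independent of each other.

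**Figure D3:**
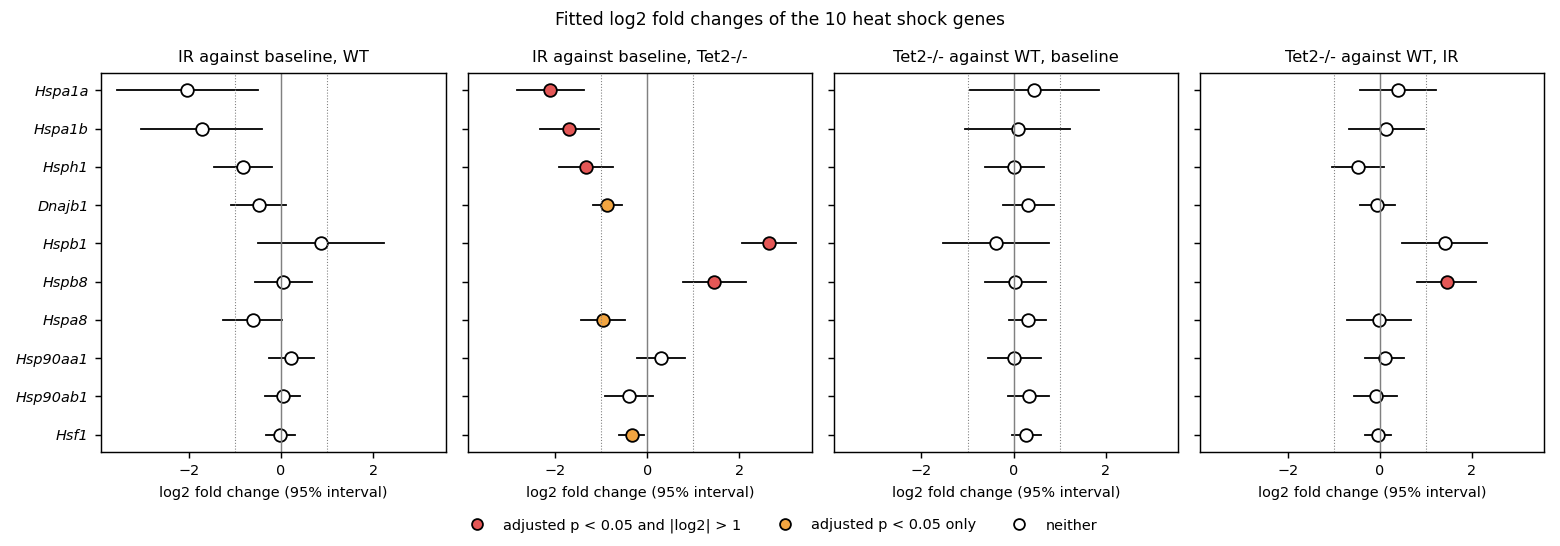
Log2 fold change of each of the 10 genes in 4 comparisons (points) with its 95% interval from edgeR's quasi-likelihood fit (lines); filled red points were called, orange points passed the adjusted p of 0.05 at a fold under the limit, and dotted lines mark -1 and 1. Among libraries labelled Tet2-/- *Hspb1* lies at 2.64 and *Hspa1a* at -2.11 with IR, and the WT intervals for *Hspa1a* and *Hspb1* are the widest of that comparison.

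Because the members moved in opposite directions, their shares of the chaperone pool were followed. The pool is the summed FPKM of the 9 members other than *Hsf1*. It ranged from 792 to 1139 FPKM in WT at baseline and from 773 to 871 after IR, and from 906 to 1242 and from 857 to 982 in the libraries labelled Tet2-/-. The inducible *Hspa1a* and *Hspa1b* made up 3.82 to 12.1% of it in WT and 5.47 to 8.51% in the libraries labelled Tet2-/- at baseline. After IR they made up 1.66 to 2.82% and 1.66 to 3.67%, below every baseline library. The small heat shock proteins *Hspb1* and *Hspb8* took 1.36 to 3.03% and 0.984 to 1.63% at baseline. After IR they took 2.18 to 4.93% in WT and 9.78 to 11.3% in the libraries labelled Tet2-/-, so the latter lay above all others. *Hsp90ab1* held the largest share in every group, from 41.8 to 51.4% at baseline and from 48.3 to 66.5% after IR. These shares are linked, because a decrease of one raises the others.

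Within groups several inducible members deviated together, to differing degrees. Over the 12 libraries, the deviations of log2(FPKM + 1) from the group means correlated between *Hspa1a* and *Hspa1b* with r = 0.96 (Spearman rho 0.91), between *Hspa1b* and *Dnajb1* with r = 0.93 (rho 0.92) and between *Hspa1b* and *Hsph1* with r = 0.86 (rho 0.80). Without WT baseline replicates 1 and 2, the libraries farthest from the median, these were 0.90, 0.81 and 0.77 over 10 libraries. Values were lower between *Hspa1a* and *Hsph1* (r = 0.74, rho 0.62, or 0.51 without the same libraries), between *Hsph1* and *Dnajb1* (r = 0.69, rho 0.66) and between *Hspa1a* and *Hsp90aa1* (r = 0.23, rho 0.29). *Hspb1* also deviated with *Hspa1b* within groups (r = 0.77, rho 0.76), although the group means of these genes went opposite ways with IR, and r was 0.59 without the same libraries. *Hspb1* and *Hspb8* did so less (r = 0.43, rho 0.42). The points are libraries that share the depth and composition of their RNA, and *Hspa1a* and *Hspa1b* share sequence, so these values are given as a description.

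Among 12187 other genes, the 5 whose log2(FPKM + 1) followed the summed *Hspa1a* and *Hspa1b* most closely over the 12 libraries, group differences included, were *Swt1* (r = 0.94), *Banp* (0.91), *Dcun1d2* (0.89), *Zmym1* (0.89) and *Coq4* (0.87). *Swt1* was at 3.67, 5.19 and 4.09 FPKM in WT at baseline, highest in the same replicate 2, and at 3.54, 3.92 and 3.93 after IR. In the libraries labelled Tet2-/- it was at 4.74, 4.62 and 4.65 at baseline and at 4.15, 4.09 and 3.11 after IR. The r between its deviations from the group means and those of the sum was 0.95. That value comes from the same 12 libraries by which *Swt1* was chosen, so it is no separate support. For the other 4 genes that within-group r lay between 0.71 and 0.78.

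The summed markers of injured tubules and of neutrophils were higher after IR, as *Hspb1* and *Hspb8* were in the libraries labelled Tet2-/-. Whole kidneys were used, so a change in the number of cells of a type and a change in RNA per cell cannot be told apart. Summed FPKM of 9 tubular injury markers was 243 to 552 in the 6 baseline libraries. It was 1704, 7935 and 5950 in the WT IR libraries and 14394, 26067 and 12077 in those labelled Tet2-/-. WT IR replicate 1 was lowest of the IR libraries in these markers and in *Hspb1*, at 13.6 FPKM. *Hspb8* was at 2.63 to 4.23 FPKM in the WT IR libraries, and among those labelled Tet2-/- at 11.4 in replicate 3 and at 6.40 in replicate 1. Which of these 3 libraries was lowest in the markers depended on the measure. Replicate 3 had the lowest sum, while the mean log2(FPKM + 0.1) of the 9 markers was 7.29, 7.89 and 7.43 in replicates 1, 2 and 3. Of these 9 markers 5 were called higher with IR in WT and 8 in the libraries labelled Tet2-/-. Between genotypes after IR 0 were called by edgeR (7 had an unadjusted p under 0.05, and DESeq2 called 7), at a median difference of 1.60. Summed FPKM of 10 neutrophil markers, of which *Lcn2* is also on the injury list, was 3.54 to 6.44 at baseline. It was 78.3, 486 and 164 in the WT IR libraries and 2056, 1974 and 983 in those labelled Tet2-/-. After IR 7 of 9 tested neutrophil markers were called higher in the libraries labelled Tet2-/-. Their part in the small heat shock protein result was not tested.

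The summed proximal tubule markers were lower after IR. Their sum was 35931 to 54668 FPKM in the 6 baseline libraries, 23074 to 27123 in the WT IR libraries and 14919 to 23765 in those labelled Tet2-/-. Of 12 markers, 1 was called lower with IR in WT and 9 in the libraries labelled Tet2-/-. Between genotypes after IR 5 of 12 were called lower in the libraries labelled Tet2-/- (median -1.45), where *Hspa1a*, *Hspa1b* and *Hspa8* had estimates of 0.40, 0.15 and -0.02, none of which passed the test. Macrophage markers summed to 33.3 to 67.0 FPKM in the baseline and WT IR libraries and to 63.9 to 131 in the IR libraries labelled Tet2-/-. Lymphocyte markers summed to at most 3.91 FPKM in any library. Summed endothelial markers ranged from 11.9 to 125 FPKM and summed thick limb and distal tubule markers from 671 to 3089 FPKM, with overlapping groups. Of 7 thick limb and distal tubule markers, 3 were called lower with IR in the libraries labelled Tet2-/- (median -0.57) and 0 in WT. Between genotypes after IR edgeR called 0 of these 7 (4 had an unadjusted p under 0.05, and DESeq2 called 2). WT baseline replicate 2, the library with the highest *Hspa1a*, had 309.5 FPKM of summed injury markers, the lowest sum of its group. By the mean log2(FPKM + 0.1) of these markers it was not the lowest, with 2.65, 2.86 and 2.88 in WT baseline replicates 1, 2 and 3. The part of these cell types in the heat shock results was not tested. With both WT baseline libraries rich in adipocyte markers left out, 1 WT baseline library remained, assumed to vary like the IR libraries, and the estimates in WT were -0.79 for *Hspa1a* (adjusted p = 0.482) and -0.58 for *Hspa1b* (adjusted p = 0.555), beside -0.89 and -0.84 without replicate 2 alone.

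**Figure D4:**
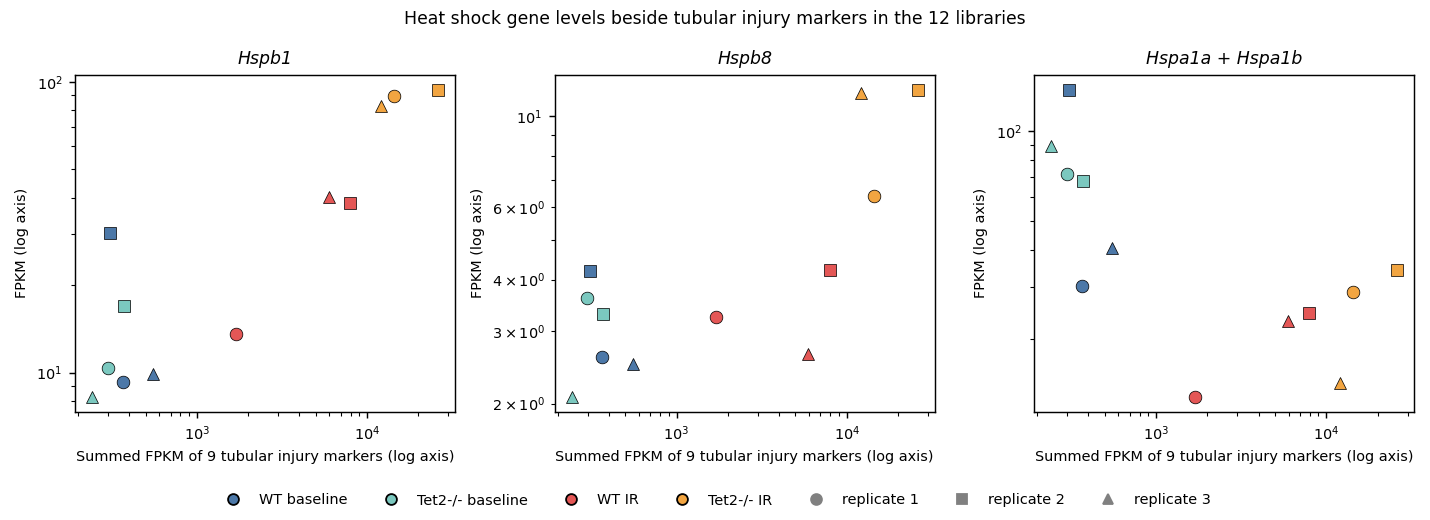
FPKM of *Hspb1*, *Hspb8* and the summed *Hspa1a* and *Hspa1b* (vertical log axes) against the summed FPKM of 9 tubular injury markers (horizontal log axis) in the 12 libraries, coloured by group and shaped by replicate number. The 3 IR libraries labelled Tet2-/- have injury marker sums of 12077 FPKM or more and the highest *Hspb1* and *Hspb8*, and WT IR replicate 1 (red circle) lies at 1704 FPKM.

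Other chaperones and co-chaperones were taken as 9 lists of 95 genes, of which 93 were tested (*Hspb3* and *Hsf3* were too low). With IR in WT 1 was called, *Bag2*, and the median was 0.00. With IR in the libraries labelled Tet2-/- 3 of 93 were called higher and 7 lower, at a median of -0.24, beside 12.7% and 11.6% of all genes. *Bag2* encodes a co-chaperone that slows the handing of HSP70 clients to degradation. It was at 4.91, 5.25 and 6.11 FPKM in WT at baseline and at 13.3, 18.1 and 21.7 after IR. Kidneys labelled Tet2-/- had it at 6.54, 6.73 and 6.29 at baseline and at 32.6, 34.0 and 34.1 after IR. No IR library overlapped a baseline library. *Bag2* rose by 1.66 in WT (adjusted p = 0.0194) and by 2.11 in the libraries labelled Tet2-/- (adjusted p = 5.19e-05), and its interaction was 0.49 (adjusted p = 0.244).

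With IR in the libraries labelled Tet2-/-, 20.3% of all genes were lower and 22.9% higher at an adjusted p under 0.05 and any fold, and 11.6% were called lower and 12.7% higher. Of 12 other cytosolic J proteins, 1 was called higher and 2 lower with IR in the libraries labelled Tet2-/-, with a median of -0.04. *Dnaja1*, a J protein partner of HSC70 named here after its values were seen, was at 50.3, 54.6 and 52.7 FPKM in WT at baseline and at 27.9, 26.7 and 31.2 after IR. Kidneys labelled Tet2-/- had it at 49.7, 75.4 and 55.3 at baseline and at 19.6, 20.3 and 17.4 after IR. It fell by 0.93 in WT (adjusted p = 0.023), under the fold limit, and by 1.91 in the libraries labelled Tet2-/- (adjusted p = 0.000329), and the interaction was called (-0.94, adjusted p = 0.0299). Of 9 HSP70 co-chaperones, *Bag2* was the 1 called. *Bag3*, the partner of *Hspb8*, also named after its values were seen, had IR estimates of -0.23 in WT and -0.08 in the libraries labelled Tet2-/-, and after IR it was higher in the latter than in WT by 0.55 (adjusted p = 0.0353). Of 14 HSP90 co-chaperones 7 were lower with IR in the libraries labelled Tet2-/- at an adjusted p under 0.05, each by less than the fold limit (list median -0.37). Of 8 other HSP70 and HSP110 chaperones 1 was higher and 1 lower there in the same way (median -0.04). Of 6 other small heat shock proteins tested, 1 was called higher and 1 lower there. The latter was *Cryaa*, a lens crystallin that fell by 3.16 there (adjusted p = 0.00216) and was lower than in WT after IR (-1.95, adjusted p = 0.0382). *Cryaa* was low throughout. In the libraries labelled Tet2-/- it was at 4.32, 2.39 and 1.20 FPKM at baseline and at 0.398, 0.408 and 0.253 after IR (52, 62 and 28 counts). *Cryab*, the most abundant of these other small heat shock proteins, ranged from 105 to 543 FPKM with overlapping groups. Both were named after their values were seen. Of 5 other heat shock factors and their binding proteins 2 were called lower there. They were *Hsf2bp* (mean 4.80 FPKM at baseline and 1.34 after IR) and *Hsf5*, which was barely detected (0.044 and 0.020 FPKM). *Hsf2* (-0.14) and *Hsbp1* (-0.42) were not called. These genes too were named after their values were seen. Of 14 subunits of the CCT chaperonin and prefoldin, which fold actin and tubulin, 3 were higher and 1 lower at an adjusted p under 0.05, all within the fold limit.

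**Figure D5:**
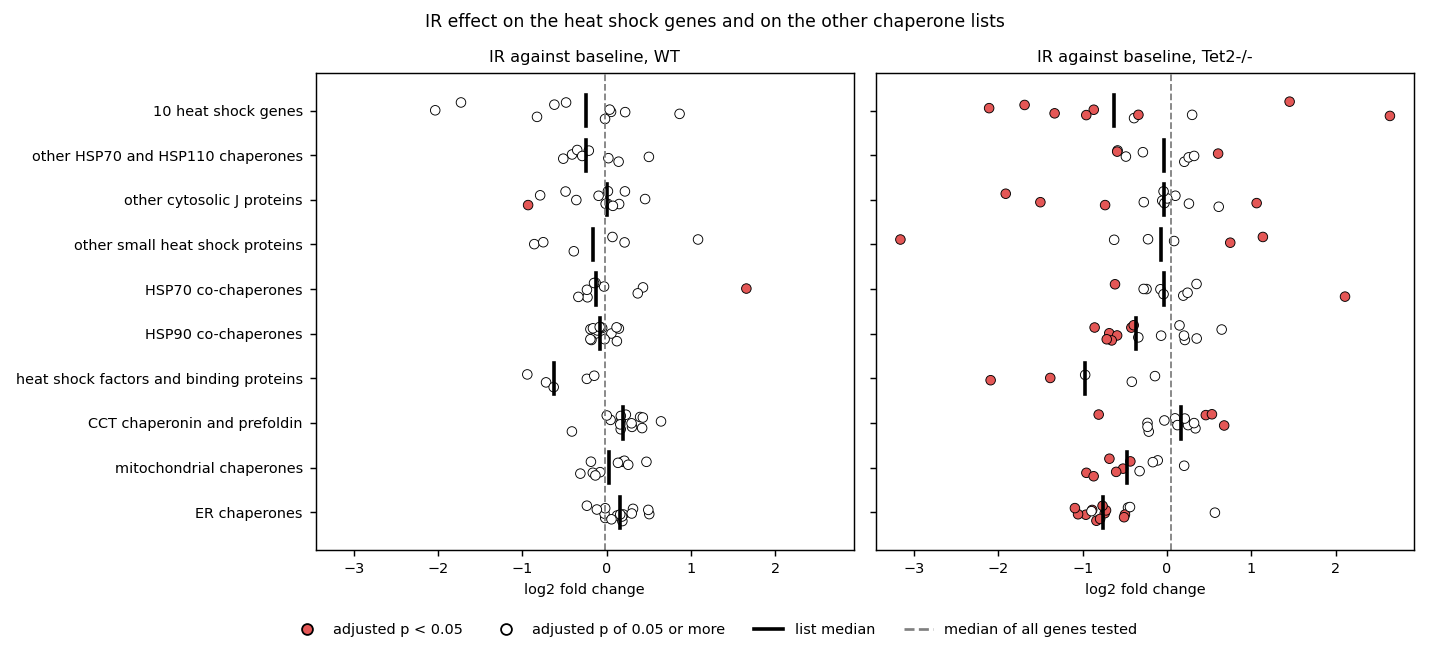
Log2 fold change with IR of the 10 heat shock genes and of 9 lists of other chaperones (points, 1 a gene) in WT (left) and in the libraries labelled Tet2-/- (right), with each list's median (black bar) and the median of all genes tested (dashed line). Red points have an adjusted p under 0.05; on the right the ER chaperone median is -0.77 and that of all genes is 0.04.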

How the data were processed

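RNA-seq of total RNA from 12 whole kidneys was used, 3 libraries in each of 4 groups. The authors aligned reads to mm9 with STAR and quantified transcripts with HOMER (versions not given in the sources used here). The deposited count table holds expected counts in steps of 0.5, of which 38.7% are not whole, and these were rounded to whole numbers. The deposited FPKM table, made by the authors with HOMER, was used for levels. How reads with several matches were shared, and whether strand was used, is not given in the sources used here. Of 34600 transcripts, 1 was kept for each of 24421 symbols, the one with the highest total count (5569 symbols had several).

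Tests were made with edgeR 4.0.16 in R 4.3.3 on all genes passing its filter on low counts, with TMM scaling, quasi-likelihood F tests on the 6 libraries of each comparison (all 12 for the interaction) and Benjamini-Hochberg adjusted p-values. Intervals are 95% intervals of the log2 fold change from the same fit. No source used here gives the batches in which the libraries were made, so p-values measure the spread between these libraries, which may be technical. The members, and the lists of chaperones and markers, were chosen with earlier results of these data known. The genes named outside the members are those called with IR in WT on a chaperone list (at most 4 a list, mean FPKM of at least 1) and the 5 most correlated with the summed *Hspa1a* and *Hspa1b*, and exceptions are stated.

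Replicate numbers are shared between groups, with no source saying what they mark. Deviations from group means correlated between same-numbered baseline and IR libraries at 0.344 to 0.349 in WT and 0.120 to 0.350 in Tet2-/-, so the numbers may pair them within genotype. The main tests do not use the pairing, and a fit with the replicate number as a block is given where it changes a call. Between genotypes the correlations of same-numbered libraries ran from -0.17 to 0.05 at baseline and were -0.0002, 0.206 and 0.303 after IR. Libraries of different genotypes were not treated as paired, although the values after IR overlap the range within Tet2-/-. Alternatives were DESeq2 1.42.0, limma 3.58.1 on log2(FPKM + 1) and log2(FPKM + 0.1), other scalings and filters, sums over transcripts, and each library left out. The edgeR test was tested on simulated data, where it recovered 159 of 196 genes changed by 2 on the log2 scale in the WT comparison and 128 of 196 in the interaction. With no change simulated in the WT comparison edgeR called 0 genes and DESeq2 36. Upstream sequences and copies were read from the mm9 genome with samtools 1.23.1 and BLAST 2.17.0, with deposited coordinates taken as 1-based. Protein sequences were not used here.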

Additional observations from a re-analysis of the deposited data

How the results depend on the processing

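The members had from 354.5 (*Hspb8*) to 240113 (*Hsp90ab1*) counts in a library. WT baseline replicate 2 decided several WT values. The 5 calls with IR in the libraries labelled Tet2-/- held under every alternative (with *Hspa1a* and *Hspa1b* summed, as 1 call for both), with 8 members past the adjusted p when no fold limit was set and 5 to 6 when 1 library was left out. With IR in WT, where edgeR called 0 members, DESeq2 and the replicate block called 2 each, and 1 passed with both WT baseline replicate 2 and WT IR replicate 1 left out (*Hspb1*, for which these are the highest baseline and the lowest IR library, so that this is no test). Leaving out 1 library gave 0 there and at baseline. Between genotypes after IR, DESeq2, limma on log2(FPKM + 1) and limma on log2(FPKM + 0.1) called 2 members each in place of 1, and 10.2%, 3.68% and 6.19% of all genes in place of 6.15%, and leaving out 1 library gave 0 to 1. In the interaction, 1 member was called with DESeq2, library sizes alone, a mean FPKM of at least 1, both limma settings, the replicate block, or the same 2 libraries left out (*Hspb8* in each, but *Hspb1* with the block and *Dnajb1* with the 2 left out), where the shares of all genes called were 16.5%, 10.9%, 13.1%, 9.95% and 10.8%, 12.6%, and 3.19% in place of 9.18%, and 0 to 1 with 1 library left out. The replicate block is also given for the genotype comparisons, whose libraries were not treated as paired, and it changed no call there. The cause of these changes was not tested. The settings without the WT libraries rich in adipocyte markers and without that pair of libraries were chosen after seeing the data, and the first leaves 1 WT baseline library. With 1 library left out, the calls over all genes were 87 to 548 (376 with all) with IR in WT, 3254 to 4278 (3974) with IR in the libraries labelled Tet2-/-, 2 to 10 (2) at baseline, 294 to 942 (996) after IR and 697 to 2044 (1536) in the interaction.

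The following estimates changed sign, and none of them was called. With IR in WT *Hsf1* was 0.027 (library sizes), 0.046 and 0.050 (limma), 0.0031 (transcripts summed), 0.051 (without the 2 libraries rich in adipocyte markers) and 0.15 (without the pair). At baseline *Hsph1* was -0.054 (library sizes), -0.033 and -0.033 (limma) and -0.0040 (12 libraries in 1 fit), *Hspb8* was -0.031, -0.033 and -0.043 under the first 3, *Hsp90aa1* was -0.049, -0.087, -0.088 and -0.011 under the same 4, and *Hspb1* was 0.45 without the libraries rich in adipocyte markers. After IR, library sizes and both limma settings gave 0.059, 0.056 and 0.060 for *Dnajb1*, 0.093, 0.14 and 0.14 for *Hspa8*, 0.0035, 0.0029 and 0.0029 for *Hsp90ab1* and 0.071, 0.055 and 0.058 for *Hsf1*. For *Hspa8* upper-quartile scaling gave 0.016 and the replicate block 0.034. In the interaction *Hspa1a* was 0.16 (library sizes), *Hspa1b* was -0.053 and -0.054 (limma), -0.21 (replicate block), -1.12 (without the adipocyte-rich libraries) and -1.10 (without the pair), and *Hsp90aa1* was -0.30 and -0.093 under the last 2. With 1 library left out, the WT IR effect ranged from -0.086 to 0.34 for *Hspb8*, -0.054 to 0.12 for *Hsp90ab1* and -0.094 to 0.13 for *Hsf1*. The baseline difference ranged from -0.27 to 0.97 for *Hspa1b*, -0.18 to 0.36 for *Hsph1*, -0.73 to 0.40 for *Hspb1*, -0.093 to 0.32 for *Hspb8* and -0.25 to 0.17 for *Hsp90aa1*. The difference after IR ranged from -0.11 to 0.41 for *Hspa1b*, -0.19 to 0.051 for *Dnajb1*, -0.27 to 0.24 for *Hspa8*, -0.019 to 0.22 for *Hsp90aa1* and -0.12 to 0.0060 for *Hsf1*. The interaction ranged from -1.23 to 0.33 for *Hspa1a*, -0.86 to 0.43 for *Hspa1b* and -0.047 to 0.33 for *Hsp90aa1*. Over all genes the calls with IR in WT were 234 higher and 142 lower with edgeR, 538 and 533 with DESeq2, and 428 and 559 with the replicate block.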

Other observations

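Chaperones of other compartments were followed beside the cytosolic heat shock genes. Of 15 ER chaperones, which fold secreted and membrane proteins, 11 were lower with IR in the libraries labelled Tet2-/- at an adjusted p under 0.05 with edgeR (2 past the fold limit), against 20.3% of all genes, with a list median of -0.77 beside 0.04 over all genes. In WT the median was 0.16 beside -0.03. After IR 10 were lower in the libraries labelled Tet2-/- than in WT at an adjusted p under 0.05, of which 1 passed the fold limit (list median -0.65), against 6.17% of all genes lower at that p, and the interaction was called lower for 7 of 15, which 5.39% of all genes were. *Calr*, the lectin chaperone calreticulin, chosen after its values were seen, fell by 1.06 with IR in the libraries labelled Tet2-/- (adjusted p = 0.00371). Of 10 mitochondrial chaperones 6 were lower there at an adjusted p under 0.05 (list median -0.48), and 2 were called lower in the interaction. Over all 93 chaperones tested the interaction was called lower for 11. The lists were chosen with earlier results known, and they received no test as lists.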
